A study of Mus musculus with 2 samples.

Results

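The lysosomal cathepsins and legumain are proteases that cells keep in acidic lysosomes to break down proteins taken up from outside or delivered from within. The set holds 10 genes, Ctsa, Ctsb, Ctsc, Ctsd, Ctsf, Ctsh, Ctsl, Ctss, Ctsz and Lgmn, chosen by their symbols among the 32285 genes of the count tables, and all 10 were found. They were followed in microglia, in CNS-associated macrophages (CAMs) and in the other CD45+ cells of the brains of control and Arpc4dCx3cr1 mice.

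The study asked what microglia need the Arp2/3 complex for, an assembly of proteins that nucleates branched actin filaments and of which ARPC4 is a subunit. Brain cells of 8 mice, 12 weeks old, were purified on Percoll, sorted as CD45+ cells, tagged per mouse with lipid-bound oligonucleotides and pooled into 1 droplet library that reads the 3′ ends of transcripts. The 4 control mice were Cre-negative Arpc4 fl/fl littermates, and the 4 Arpc4dCx3cr1 mice carried Tg(Cx3cr1-Cre) on the same Arpc4 fl/fl background, so both groups held the floxed alleles. The Cre is driven by Cx3cr1 sequences and acts in brain myeloid cells from their development on, not in microglia alone. According to the methods all 4 control mice were male and 3 of the Arpc4dCx3cr1 mice were male and 1 female, without saying which. The study left the female mouse out of its own analysis, whereas all 8 mice enter the tests here. All mice shared 1 library, so p-values measure the spread between mice only.

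The tables held 19864 cells, of which 19863 were used, with no barcode shared between mice and 5251527 to 12878691 unique molecular identifiers (UMIs, counted transcripts) on genes per mouse. Levels are given as CPM, the UMIs of a gene scaled to the same total in every sum of cells. From marker genes, 17042 cells were called microglia-like, 409 CAM-like, 347 monocyte-like, 309 T cell-like and 79 B cell-like. Another 80 granulocyte-like cells, 92 proliferating cells and 1505 cells of clusters left unnamed enter no comparison of genotypes. Arpc4 itself fell in microglia-like cells, from 225 ± 8.74 CPM in control to 145 ± 6.34 in Arpc4dCx3cr1 mice (SD, n = 4 each), with no overlap between the groups and a log2 fold change of -0.63 ± 0.054 (SE, adjusted p = 5.48e-06). The sources do not say which exons are floxed, and a 3′ tag can come from outside the deleted part. In CAM-like cells Arpc4 was at 227 ± 31.8 and 272 ± 37.4 CPM, with a log2 fold change of 0.27 (95% interval -0.17 to 0.72, adjusted p = 0.68), from 19 to 90 UMIs per mouse. Mouse 1 of the Arpc4dCx3cr1 group stood apart, with Xist at 1382 CPM in its microglia-like cells against 3.65 to 13.2 CPM in the other 7 mice, and with 59.3% of its UMIs on tags against 17.9 to 38% in the others. By Xist, which female cells make, mouse 1 is the 1 female of the methods, so sex is not balanced between the groups. The log2 fold changes of Ctsc, Ctsf, Ctss and Lgmn in microglia-like cells are therefore also given without mouse 1. Those of other genes moved as well, among them Cst3 (to -0.89) and Mitf (to 0.91), and are not all given.

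Cathepsins are made as inactive precursors, travel to the lysosome mostly on mannose 6-phosphate receptors, and are cut to active enzymes at low pH. Most are cysteine proteases of the papain family, while cathepsin D is an aspartic protease, cathepsin A a serine carboxypeptidase, and legumain cuts after asparagine and trims several cathepsins to their mature chains. In microglia they degrade engulfed synapses, myelin and dead cells, and cathepsin S and legumain also take part in preparing antigens for MHC class II.

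The 10 genes are scattered over the genome rather than clustered. In the GENCODE vM21 annotation of GRCm38 (mm10), the build of the deposited counts, Ctsa lies at chr2:164832873-164841032 and Ctsz at chr2:174427493-174439039. Ctsb lies at chr14:63122462-63145923, Ctsl at chr13:64359337-64370890, Ctss at chr3:95526786-95556403 and Ctsf at chr19:4855130-4860918. Ctsc lies at chr7:88278085-88310888, Ctsd at chr7:142375911-142388038, Ctsh at chr9:90054152-90076089 and Lgmn at chr12:102394084-102439813. Ctsd, Ctsl and Ctss overlap another annotated gene on the same strand (Gm49369, Gm49230 and Hmgb1-ps5), with which some of their reads could be shared. Ctsa, Ctsb, Ctsc, Ctsl and Ctsz overlap a gene on the opposite strand (for example Pltp for Ctsa and Fdft1 for Ctsb).

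The promoters are shown because many lysosomal genes share a short element, built on CACGTG, that binds the MiT/TFE transcription factors. RefSeq promoters of GRCm38.p6, from 250 bases before to 50 bases after the start site, were given for 8 of the 10 genes, and not for Ctsb and Ctsh. The letters CACGTG, which read the same on both strands, stood in the promoters of 5 of these 8 genes, against 7.15% of all 32851 promoters in the table. The 8 genes had 10 promoters and are counted by gene, whereas the shares of all promoters are by promoter. The longer TCACGTGA, which contains CACGTG, stood in those of Ctsa and Ctsd, against 0.974% of all promoters. Each stretch below is on the strand of its gene, with CACGTG in capitals.
Ctsa: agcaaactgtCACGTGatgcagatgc
Ctsd: gcccgcgtctCACGTGacccgttgag
Ctsf: ccccgtggtcCACGTGcctcgcgtaa
Ctsl: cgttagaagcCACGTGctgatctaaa
Lgmn: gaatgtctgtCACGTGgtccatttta
They lie at chr2:164833751-164833776 on the plus strand, chr7:142387910-142387935 on the minus strand, chr19:4855076-4855101 on the plus strand, chr13:64370741-64370766 on the minus strand and chr12:102439126-102439151 on the minus strand. The first base of CACGTG is at position -12 from the start site in Ctsa, -98 in Ctsd, -79 in Ctsf, -236 in Ctsl and -49 in Lgmn. Ctsa held the letters a second time at position 5 and Ctsd at position -245. No CACGTG was in the windows of Ctsc, Ctss and Ctsz. A match of letters is a description and not a binding site.

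Among the named cell classes of control mice, 6 of the 10 genes had their highest mean level in microglia-like cells and 4 in CAM-like cells. These levels are plain CPM, the share of a gene among all gene UMIs of a mouse and cell class, given as mean ± SD over 4 mice unless stated. They count 3′ tags without regard to gene length, and compare one gene between cell classes, not one gene with another. Ctsd was at 4158 ± 231 CPM in microglia-like cells and 1716 ± 182 in CAM-like cells. Lgmn was at 2465 ± 87.1 and 1299.7 ± 96.6 CPM, and Ctsl at 1194 ± 15.2 and 497 ± 46 CPM. For these 3 genes, and for Ctsf, Ctss and Ctsz, the 4 microglial values lay above those of every other named class without overlap. The cells of unnamed clusters were not ranked. In control mice they held Lgmn at 2736 ± 284, Ctsl at 1445 ± 157 and Ctsf at 247 ± 15.7 CPM, above the microglial means. Ctss (4729 ± 344 CPM) and Ctsz (1456 ± 55.5 CPM) were also higher there, and Ctsd (4129 ± 149 CPM) was slightly lower. Ctss, at 4517 ± 67.9 CPM in microglia-like cells, was at 3117 ± 82.2 CPM in CAM-like cells, and Ctsf fell off from 167 ± 7.4 to 66.6 ± 12.7 CPM.

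The genes highest in CAM-like cells were led by Ctsc, the dipeptidyl peptidase that activates granule proteases, at 1418 ± 95.6 CPM against 416 ± 22.3 CPM in microglia-like cells. Ctsb followed with 1664 ± 94.4 against 924 ± 25.3 CPM, and Ctsh with 777 ± 38.1 against 686 ± 27.6 CPM. These 3 genes did not overlap between the classes, though for Ctsh the highest microglial value (722 CPM) and the lowest CAM value (723 CPM) nearly met. Ctsa did not separate them, at 408 ± 16.1 and 396 ± 11 CPM with overlapping mice. After 10% of each sum had been subtracted as ambient RNA, 6 genes were again highest in microglia-like cells.

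Monocyte-like cells kept a different selection of these proteases. Relative to the microglial level, they held Ctsh at 82.2%, Ctsc at 51% and Ctsb at 45.4%, but Ctsd at 10.7%, Lgmn at 11.4% and Ctsf at 7.43%. With 10% of each sum subtracted as ambient RNA, Ctsd in monocyte-like cells of control mice went from 447 to 37.4 CPM, Lgmn from 280.1 to 111 CPM and Ctsf from 12.4 to 3.93 CPM, while Ctsh went from 563 to 509 CPM. The summed level of 11 microglia markers in the same cells was 7.67% of that in microglia-like cells, so Ctsd, Lgmn and Ctsf stood near the marker level and Ctsh far above it. T cell-like cells held the microglia markers at 35.4% of the microglial level and the 10 proteases at 29.4% (Ctsf) to 62.9% (Ctsc). How far free RNA or attached microglia make up these values was not tested, and no expression in T cells is read from them. The empty droplets of the pool, barcodes with at most 100 UMIs, were rich in the same transcripts, with Ctss at 5494 CPM, Ctsd at 4925 CPM and Ctsl at 2088 CPM.

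**Figure D1:**
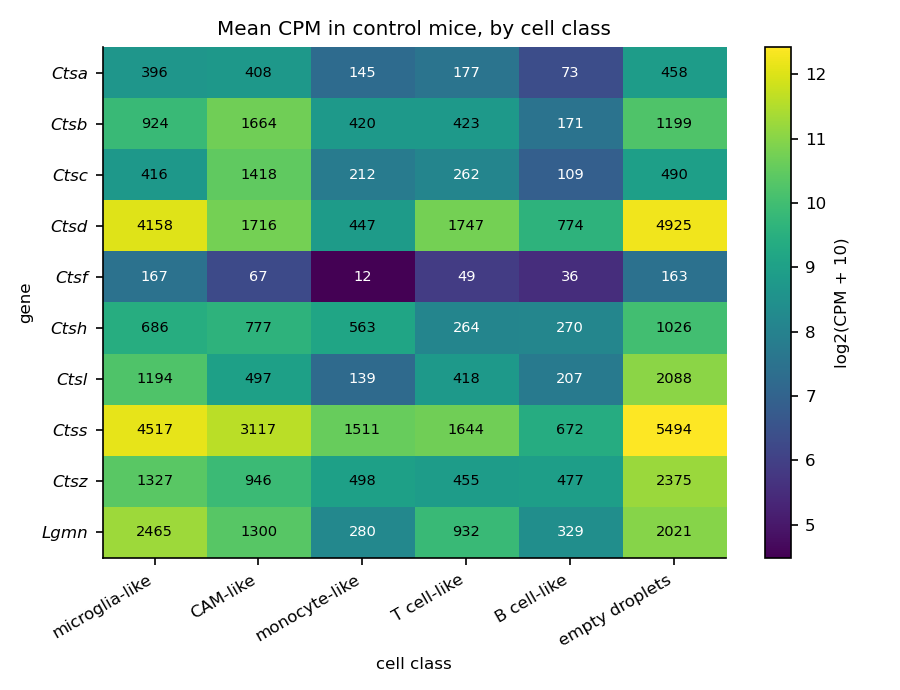
Mean level of each gene in control mice (CPM, printed in each field and coloured on a log2 scale after adding 10 CPM) by cell class, with the empty droplets of the pool in the last column. Ctsd, Ctsf, Ctsl, Ctss, Ctsz and Lgmn are higher in microglia-like than in CAM-like cells, and Ctsb, Ctsc and Ctsh are higher in CAM-like cells.

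In microglia-like cells 7 of the 10 genes rose and 2 fell in Arpc4dCx3cr1 mice. Ctsb, Ctsc, Ctsd, Ctsh, Ctsl, Ctss and Ctsz were higher, Ctsf and Lgmn were lower, and Ctsa did not pass the test. UMIs were summed per mouse over its microglia-like cells, 998 to 2384 of them, and compared with the quasi-likelihood test of edgeR, with Benjamini-Hochberg adjustment over all genes tested and a threshold of 0.05. This contrast is broad: of 12729 genes tested, 46% passed, 22.8% as higher and 23.2% as lower, and the groups did not overlap for 44.2%. All 10 genes were tested, and their median log2 fold change was 0.43, beside -0.0066 over all genes tested. Levels in the following account are CPM over the genes tested, scaled with TMM factors, in the order of mice 1 to 4 of each group. In a sum over cells, fewer cells that make a transcript and less of it per cell cannot be told apart.

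Cathepsin D, the main aspartic endopeptidase of lysosomes, was at 3838, 3955, 3991 and 4272 CPM in control mice and at 4551, 4585, 5825 and 5923 CPM in Arpc4dCx3cr1 mice. The Arpc4dCx3cr1 mice fell into a lower and a higher pair, all above the controls. The log2 fold change of 0.38 ± 0.095 (SE, 95% interval 0.17 to 0.59) had an adjusted p of 0.0072. Without TMM factors the highest control mouse (4477 CPM) passed the lowest Arpc4dCx3cr1 mouse (4365 CPM), so the separation of Ctsd depended on the scaling.

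Among the cysteine endopeptidases, cathepsin B, which also removes dipeptides from the end of chains, changed most. Ctsb was at 876, 876, 906 and 909 CPM in control mice and at 1523, 1369.8, 1579 and 1705 CPM in Arpc4dCx3cr1 mice. Every Arpc4dCx3cr1 mouse was far above the narrow control range. The level rose 1.73-fold (log2 0.79 ± 0.067, adjusted p = 4.7e-06).

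Ctss, a protease that stays active near neutral pH and cuts the invariant chain in antigen-presenting cells, was at 4355, 4308, 4456 and 4328 CPM in control mice. In Arpc4dCx3cr1 mice it was at 7863, 6042, 6154 and 6265 CPM, with mouse 1 well above the other 3, and the groups did not overlap. The log2 fold change was 0.59 ± 0.083 (adjusted p = 0.00018), and 0.50 without mouse 1.

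Ctsl, a broad endopeptidase, was at 1159, 1171, 1153 and 1128 CPM in control mice and at 1474, 1375, 1668 and 1582 CPM in Arpc4dCx3cr1 mice. All 4 Arpc4dCx3cr1 mice were above the controls, by a log2 fold change of 0.40 ± 0.063 (adjusted p = 4e-04). Cathepsin F, whose loss in humans causes an adult form of neuronal ceroid lipofuscinosis, went the other way. Ctsf was at 155, 166, 158 and 167 CPM in control mice and at 73.9, 113, 105 and 96.9 CPM in Arpc4dCx3cr1 mice. All 4 lay below the controls, and mouse 1 was lowest. The log2 fold change was -0.73 ± 0.11 (adjusted p = 0.00027), or -0.62 without mouse 1.

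The exopeptidases, which trim peptides from their ends, include the aminopeptidase Ctsh, the carboxypeptidases Ctsz and Ctsa and the dipeptidyl peptidase Ctsc. Ctsh was at 642, 652, 699 and 656 CPM in control mice and at 1281, 1107, 1106 and 1073 CPM in Arpc4dCx3cr1 mice. The groups were far apart, with mouse 1 again highest, and the level rose 1.72-fold (log2 0.79 ± 0.065, adjusted p = 4.1e-06). Ctsz was at 1265, 1278, 1307 and 1275 CPM in control mice and at 1932, 1936, 2128 and 2283 CPM in Arpc4dCx3cr1 mice. It rose in all 4 of them, 1.62-fold (log2 0.69 ± 0.062, adjusted p = 7.8e-06).

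Ctsc was at 387, 384, 427 and 409 CPM in control mice and at 669, 551, 452 and 546 CPM in Arpc4dCx3cr1 mice. The Arpc4dCx3cr1 mice were spread wide, with mouse 1 highest and mouse 3 just above the controls. The log2 fold change was 0.47 ± 0.10 (adjusted p = 0.0033), 0.37 without mouse 1, and without TMM factors the groups overlapped (control up to 441 CPM, Arpc4dCx3cr1 from 431 CPM). Ctsa, which also stabilises lysosomal β-galactosidase and neuraminidase, was at 379, 372, 390.2 and 389.5 CPM in control mice and at 356, 351, 361 and 376 CPM in Arpc4dCx3cr1 mice. The groups overlapped, and the log2 fold change of -0.08 (95% interval -0.19 to 0.02) did not pass the test (adjusted p = 0.17). With total counts in place of TMM factors, which shifted the median of all genes to -0.11, Ctsa passed as lower (-0.19, adjusted p = 0.0059).

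Legumain fell. Lgmn was at 2328, 2318, 2423 and 2452 CPM in control mice and at 1561, 1464, 1221 and 1274 CPM in Arpc4dCx3cr1 mice. Every Arpc4dCx3cr1 mouse was far below every control. The level was 1.73-fold lower (log2 -0.79 ± 0.078, 95% interval -0.96 to -0.61, adjusted p = 1.6e-05), and the log2 fold change was -0.85 without mouse 1.

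**Figure D2:**
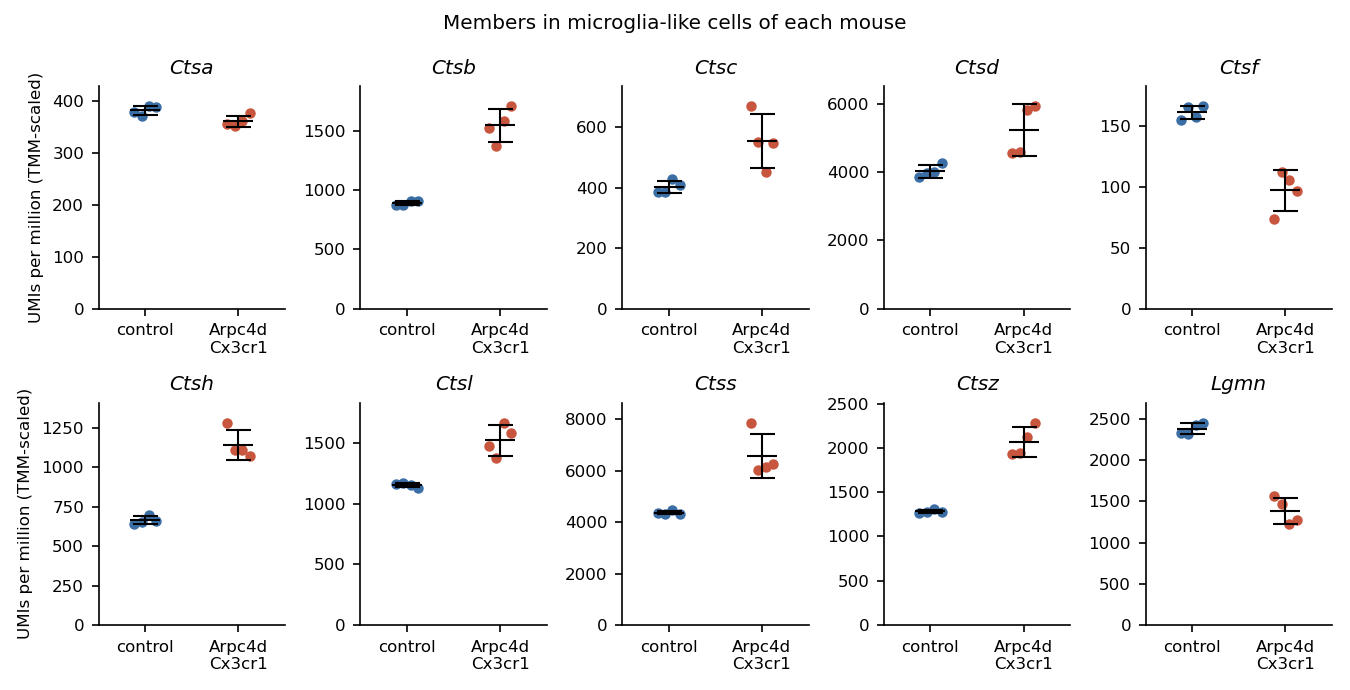
Level of each of the 10 genes in microglia-like cells (CPM over the genes tested, TMM-scaled, linear axes from 0), 1 point per mouse, with the mean and 1 SD of 4 mice per genotype. Ctsa overlaps between the groups, Ctsf and Lgmn are lower in all 4 Arpc4dCx3cr1 mice, and the other 7 genes are higher in all 4.

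The 7 and 2 calls held without Arpc4dCx3cr1 mouse 1 (6378 genes passing in all), without any other single mouse, with DESeq2, and with the cluster high in Ms4a7 left out. Subtracting 25% of each sum as ambient RNA kept all 9 calls and moved Ctsf to -1.11, Ctsl to 0.64 and Ctsz to 1.08. Marker genes of these cells moved as well. The summed level of the 11 microglia markers, none of which was at 0 in any mouse, was 15789 to 16286 CPM in control and 5188 to 8069 CPM in Arpc4dCx3cr1 microglia-like cells. CAM markers summed to 172 to 185 CPM in control and 67.2 to 157 CPM in Arpc4dCx3cr1 mice, and 5 haemoglobin and erythroid genes to 3.6 to 5.77 and 4.19 to 1489.8 CPM. Their part in the changes of the proteases was not tested. The proteases as a whole took 1.63% ± 0.044 of microglial UMIs in control and 1.97% ± 0.085 in Arpc4dCx3cr1 mice, and 1.19% ± 0.015 and 1.19% ± 0.12 of those of CAM-like cells, given as shares without a test.

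Single cells gave the same directions as the sums for the 9 genes that passed. Each microglia-like cell was thinned to 2000 UMIs, which left out 289 of 7802 control and 329 of 9240 Arpc4dCx3cr1 cells with fewer. Lgmn averaged 5.14 ± 0.17 UMIs per cell in control and 2.71 ± 0.33 in Arpc4dCx3cr1 mice, and the share of cells with at least 1 Lgmn UMI was 98.5% ± 0.43 and 88.8% ± 2.88. T cell-like cells of control mice had a Lgmn UMI in 51.9% at the same thinned depth, and in 59.7% unthinned at a median of 4987 UMIs.

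Ctsf, read in few cells, went from 28.3% ± 1.43 to 16.9% ± 2.92 of microglia-like cells, beside 7.75% of control T cell-like cells. Ctsh went from 72.8% ± 2.12 to 87.4% ± 1.54 (T cell-like 23.3%) and Ctsb from 79.8% ± 0.957 to 90.4% ± 2 (T cell-like 43.4%). The shares in T cell-like cells of Arpc4dCx3cr1 mice were 3.57% for Ctsf, 32.7% for Ctsh, 33.9% for Ctsb and 32.7% for Lgmn, below the microglial shares of the same genotype. Unthinned, Ctsb was read in 93.2 to 94.7% of control and 97.1 to 98.8% of Arpc4dCx3cr1 microglia-like cells, at medians of 3798 to 4025 and 4033 to 4525 UMIs.

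Ctss, read in nearly every microglia-like cell of both genotypes, rose in amount rather than in share, from 9.29 ± 0.18 to 13 ± 1.69 UMIs per cell. Ctsd spread out. The cell at the 10th percentile held 3 to 4 Ctsd UMIs in control and 2 to 3 in Arpc4dCx3cr1 mice, while the cell at the 90th percentile held 14 to 16 and 16 to 21. Ctsl averaged 2.51 ± 0.05 and 2.96 ± 0.22 UMIs per cell with nearly equal shares of cells, 87.9% ± 0.85 and 87.6% ± 1.96. Across cells within a mouse, counts of Ctsd and Ctsl had a mean Pearson r of 0.17 in control and 0.40 in Arpc4dCx3cr1 mice, and Ctsb and Ctsd of 0.24 and 0.30, as a description over thinned cells that share library and depth (4 mice each).

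The microglia-like cells were clustered again, into 12 clusters, of which 1, 2, 3 and 7 held mostly control cells and the rest mostly Arpc4dCx3cr1 cells. Mouse 1 of the Arpc4dCx3cr1 group gave 1479 of the 1520 cells of the cluster led by Xist, Fn1 and Tsix. That cluster therefore stands for 1 mouse more than for the genotype. Values by cluster are plain CPM and a description, since clusters were drawn from the expression of the same cells, though the 10 genes and the other listed lysosomal genes were left out when the clusters were formed. The cluster led by Cst7, Spp1 and Apoe held the highest mean of 6 of the 7 raised proteases among Arpc4dCx3cr1 cells, all but Ctsc. There, Arpc4dCx3cr1 cells had Ctsd at 9049 ± 1310.4 CPM, Ctss at 9245 ± 1563 CPM, Ctsz at 3330 ± 305 CPM and Ctsb at 2490 ± 126 CPM (SD, n = 4 mice). A cluster led by the chemokine genes Ccl4 and Ccl3 had a similar Ctsb level, 2448 ± 322 CPM, in Arpc4dCx3cr1 cells and 2523 ± 237 CPM in control cells.

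The cluster high in Ms4a7 (1456 cells, 97% of them from Arpc4dCx3cr1 mice when mice weigh equally) had another profile. It held the highest Ctsc of the clusters in Arpc4dCx3cr1 cells, 763 ± 45.1 CPM, together with their lowest Ctsd (2641 ± 260 CPM), Ctsl (555 ± 42.7 CPM), Ctsf (51.3 ± 7.75 CPM) and Lgmn (996 ± 141 CPM). High Ctsc with low Ctsd, Ctsl and Ctsf was also the pattern of the CAM-like cells of control mice. Lgmn was highest in a cluster of mostly control cells led by Crybb1, Ecscr and Gp9, at 3519 ± 226 CPM.

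**Figure D3:**
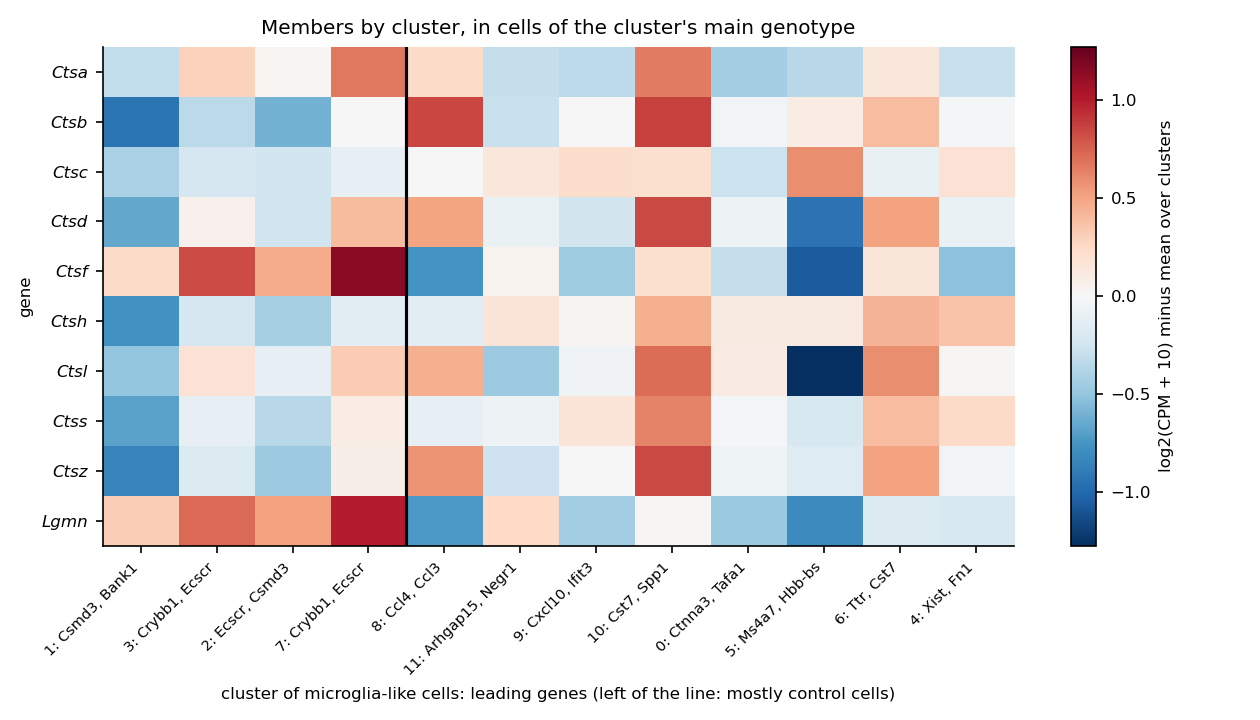
Level of the 10 genes in each of 12 clusters of microglia-like cells, named by leading genes, in the cells of the genotype that makes up most of the cluster. Colour is the log2 of the mean level, after adding 10 CPM, minus the gene's mean over clusters, and clusters left of the line hold mostly control cells. The cluster led by Xist and Fn1 is almost all from Arpc4dCx3cr1 mouse 1 (1479 of 1520 cells). The cluster high in Ms4a7 is highest for Ctsc and lowest for Ctsd, Ctsf and Ctsl, and the cluster led by Cst7 and Spp1 is high for Ctsb, Ctsd, Ctss and Ctsz.

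Within clusters the sign of the difference between genotypes was the same throughout for 5 of the 10 genes. In 7 clusters at least 2 mice of each genotype had 10 or more cells. Ctsh, Ctss and Ctsz were higher in Arpc4dCx3cr1 cells in 7 of 7 of them, and Ctsf and Lgmn lower in 7 of 7. Their median log2 ratios within clusters were 0.41 for Ctsh, 0.26 for Ctss, 0.20 for Ctsz, -0.54 for Ctsf and -0.33 for Lgmn. Some single ratios were close to 0, the smallest being 0.005 for Ctsz, 0.065 for Ctss, -0.062 for Ctsf and -0.064 for Lgmn. These are ratios of plain CPM. With total counts the median log2 fold change of all genes over all microglia-like cells was -0.11. Ratios as small as those of Ctsf and Lgmn cannot be told from such a shift. How many of all genes kept 1 sign in these clusters was not counted. In the cluster led by Ccl4 and Ccl3, Lgmn was at 2484 ± 196 CPM in control and 1058 ± 60.4 CPM in Arpc4dCx3cr1 cells.

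Ctsb had no common sign within clusters. It was higher in 4 and lower in 3 of the 7, with a median log2 ratio of 0.07, against 0.79 over all microglia-like cells. The 2 values are scaled differently, the 0.79 with TMM factors and the ratios as plain CPM. In plain CPM, Ctsb over all microglia-like cells was at 924 ± 25.3 in control and 1485 ± 119 in Arpc4dCx3cr1 mice. Ctsc was higher in 3 and lower in 4, Ctsl higher in 4 and lower in 3, and Ctsd higher in 5 and lower in 2, while Ctsa was higher in 1 and lower in 6. Few cells of the rarer genotype stood behind several of these ratios, 29 control cells of 2 mice in the cluster high in Ms4a7 and 40 Arpc4dCx3cr1 cells of 2 mice in the largest cluster of control cells, and no test was made.

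A few cells of each genotype lay among the clusters of the other. In the clusters of mostly control cells, 118 cells of Arpc4dCx3cr1 mouse 2 and 32 of mouse 3 had Lgmn at 2575 and 2310 CPM, and Arpc4 at 205 and 215 CPM. Mouse 4 had 5 such cells and mouse 1 had 0. Those Lgmn levels were near the control range of 2381 to 2569 CPM over all microglia-like cells. Arpc4, from 85 and 26 UMIs, was above the 132 to 146 CPM of Arpc4dCx3cr1 mice. Other genes in these cells of mice 2 and 3 were not at control levels. Ctsh, at 1059 and 916 CPM, was above the control range of 656 to 722 CPM. Ctss, at 5862 and 4827 CPM, was above 4454 to 4605 CPM. Ctsb, at 1096 and 809 CPM, lay above and below 896 to 952 CPM. In the clusters of mostly Arpc4dCx3cr1 cells, the 52 to 132 cells per control mouse had Lgmn at 1915 to 2007 CPM and Ctsb at 1447 to 1713 CPM. Lgmn of these control cells was below, and Ctsb above, the range of all control microglia-like cells. Their Arpc4, at 156 to 223 CPM, was also below the 224 to 242 CPM of all control microglia-like cells. Arpc4 thus differed by cluster in control cells too, and whether the cells of mice 2 and 3 kept the gene was not tested.

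In CAM-like cells, 0 of the 10 genes passed the test. The sums held 46 to 110 cells per control mouse and 22 to 44 per Arpc4dCx3cr1 mouse. Of 3248 genes tested, 1.05% passed by edgeR, 0.585% as higher and 0.462% as lower, and 354 had an unadjusted p under 0.05, among them 0 of the 10. DESeq2 also called 0 of the 10, and so did edgeR without Arpc4dCx3cr1 mouse 1. The median log2 fold change of the 10 was 0.11, beside 0.02 over all genes tested.

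Ctsb came nearest to a separation, at 2111, 1873, 1871 and 1967 CPM in control mice and 2386, 2331, 2277 and 2830.2 CPM in Arpc4dCx3cr1 mice. The groups did not overlap, as for 6.43% of the genes tested here (2.99% higher and 3.45% lower), but the log2 fold change of 0.33 (95% interval -0.05 to 0.71) had an adjusted p of 0.54. For the other 9 genes the groups overlapped. Ctss was at 3691, 3471, 3822 and 3672 CPM in control mice and at 4443, 3370, 2959 and 2515 CPM in Arpc4dCx3cr1 mice. Mouse 1 was highest and mouse 4 lowest, and the log2 fold change was -0.14 (95% interval -0.56 to 0.28).

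Ctsh had a log2 fold change of 0.15 (interval -0.24 to 0.54), Ctsc of -0.07 (-0.47 to 0.34) and Ctsd of -0.05 (-0.44 to 0.34). Lgmn, at -0.34 (-0.80 to 0.11), Ctsz, at 0.35 (-0.06 to 0.76), and Ctsl, at 0.27 (-0.15 to 0.68), had intervals that take in their microglial fold changes. So did Ctsa, at 0.17 (-0.27 to 0.61). For Ctsb, Ctsc, Ctsd, Ctsh and Ctss the upper bound in CAM-like cells lay below the fitted microglial value, and for Ctsf, with 6 to 24 UMIs per sum, the lower bound of -0.61 lay above it.

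Whether the genotype effect itself differed between the cell classes was tested with mouse as a block. Of 11169 genes tested, 6.3% passed, 5.34% with a lower effect in CAM-like cells. Among the 10 genes, 3 passed, all with a lower effect in CAM-like cells: Ctss by -0.88 ± 0.22 on the log2 scale (SE, adjusted p = 0.002), Ctsh by -0.76 ± 0.21 (0.0099) and Ctsc by -0.66 ± 0.21 (0.0296). Ctss passed under each alternative tried for this test (adjusted p 0.00034 to 0.033). These did not include DESeq2 or the coarser clustering described below, where the fold change of Ctss in CAM-like cells turned. Without Arpc4dCx3cr1 mouse 1, 5 genes passed, the same 3 and Ctsd (-0.69, adjusted p = 0.031) and Ctsz (-0.66, adjusted p = 0.043). Ctsh no longer passed without any 1 of the 4 control mice (0.057 to 0.081), and Ctsc was lost without any 1 control mouse or Arpc4dCx3cr1 mouse 2 or 3 (0.072 to 0.18) with RLE scaling factors (0.115), without the filter on low counts (0.061) and with 10% ambient RNA subtracted (0.056). Ctsb differed by -0.59 (interval -1.01 to -0.18) with an adjusted p of 0.072. With all mice, Ctsd (-0.55, adjusted p = 0.14) and Ctsf (0.67, adjusted p = 0.33) did not pass this test either.

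Summed CAM markers ranged from 7068 to 8633 CPM in control and from 5251 to 15353 CPM in Arpc4dCx3cr1 mice, and microglia markers from 4305 to 5825 and from 2286 to 3774 CPM, and their part in the protease levels was not tested. With clusters drawn more coarsely, at resolution 0.4 in place of 0.8, the class took in 1341 cells otherwise called microglia-like, 1300 of them from Arpc4dCx3cr1 mice, and 1210 of these and 38 of the 41 control cells came from the cluster high in Ms4a7. Then 3 of the 10 genes passed, Ctsc as lower (-0.71) and Ctss and Ctsz as higher (0.57 and 0.68).

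**Figure D4:**
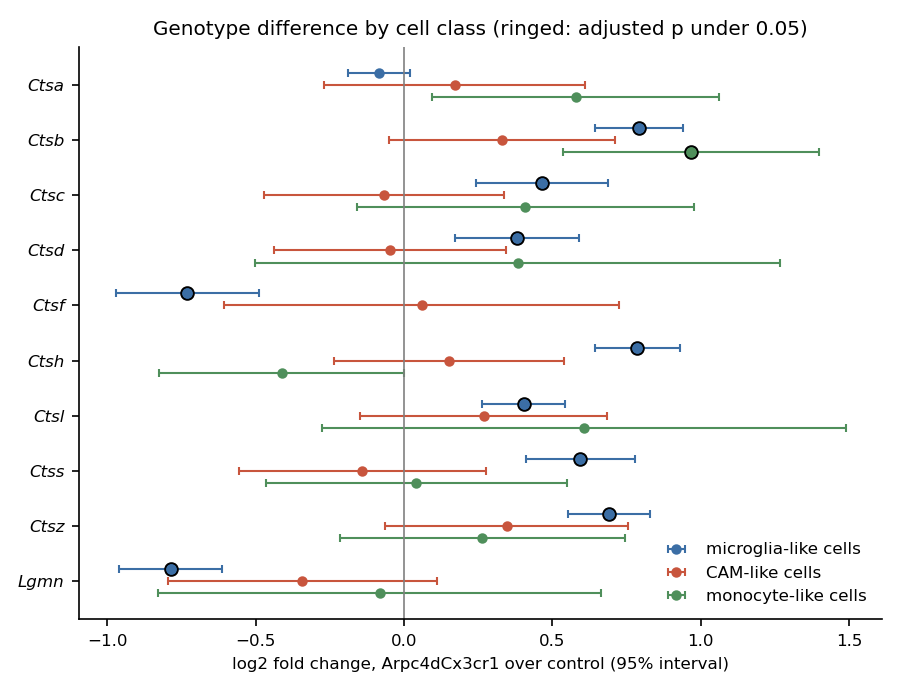
Log2 fold change of Arpc4dCx3cr1 over control for each gene in microglia-like, CAM-like and monocyte-like cells, with 95% intervals (edgeR, 4 mice each). Ringed points have an adjusted p under 0.05: 9 of 10 genes in microglia-like cells, 0 in CAM-like cells and Ctsb in monocyte-like cells.

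In monocyte-like cells 9 of the 10 genes had enough counts to be tested, and Ctsb passed. Ctsb was at 678, 416, 516 and 434 CPM in control mice and at 944, 983, 1256 and 792 CPM in Arpc4dCx3cr1 mice. The groups did not overlap, as for 5.88% of genes in this direction and 7.5% in the other, and the level rose by 0.97 ± 0.20 on the log2 scale (adjusted p = 0.011), where 6.9% of 3147 genes passed, 2.57% as higher and 4.32% as lower. The sums were small, 14 to 114 cells per Arpc4dCx3cr1 mouse and 20 to 36 per control mouse, and Ctsb no longer passed without control mouse 2 (adjusted p = 0.066), control mouse 4 (0.054) or Arpc4dCx3cr1 mouse 3 (0.056). Monocyte markers in these cells summed to 1351 to 1975 CPM in control and 2182 to 4274 CPM in Arpc4dCx3cr1 mice, and dendritic cell markers to 882 to 1495 and 171 to 630 CPM. Microglia markers there summed to 574 to 1682 and 652 to 2817 CPM, and the part of any of these in the Ctsb result was not tested. Ctsh, which rose in microglia-like cells, had a log2 fold change of -0.41 here (interval -0.82 to -0.00038, adjusted p = 0.26).

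Other genes of the lysosome, from lists of inhibitors, enzymes, membrane proteins, proton pump subunits and sorting receptors, were read in the same microglial comparison, again beside 22.8% of genes higher and 23.2% lower. Of 14 further cathepsin genes only Ctse and Ctso had enough counts. Ctse, an aspartic protease outside lysosomes, rose from 3.81 ± 0.892 to 62.1 ± 10.2 CPM (log2 4.06, adjusted p = 7.4e-08), and Ctso fell by 0.51 on the log2 scale.

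The cystatins, which block cysteine cathepsins, moved in both directions, with 2 of 3 tested genes higher and 1 lower. Cst7, whose product acts inside the cell on cathepsin C and legumain, rose from 28.8 ± 5.43 to 543 ± 274 CPM (log2 4.25), and Cstb, a cytosolic inhibitor, from 98.8 ± 7.18 to 194 ± 24.2 CPM (0.98). Cst3, the secreted cystatin C, fell from 48658 ± 1204 to 23714 ± 5154 CPM (-1.04).

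Of 6 genes in the list of other peptidases, 4 rose and 2 fell. Cpq rose by 2.16 and Scpep1 by 0.59 on the log2 scale, and Tpp1, the lysosomal tripeptidyl peptidase, fell by 0.19. Blmh, which fell by 0.20, encodes a peptidase of the cytoplasm and not of lysosomes. Glycosidases and sulfatases divided as 9 higher, 6 lower and 7 not passing of 22, with Manba (0.84) and Gla (2.08) higher and Ids (-0.61) lower. Of 13 lipid hydrolases and saposins 7 rose and 4 fell, led by Galc (1.05) and Npc2 (1.02), with Pld4 (-0.39) and Smpd1 (-0.51), the acid sphingomyelinase, lower. Their median log2 fold changes were 0.41, 0.20 and 0.16.

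Lysosomal membrane proteins had 8 higher, 2 lower and 8 not passing of 18. Cd63 rose from 414 ± 18.6 to 1180.3 ± 272 CPM (1.51) and Slc11a1, a metal transporter of phagosomes, by 0.70, while Laptm5 (-0.44) and Npc1 (-0.33), the cholesterol exporter, were lower. The vacuolar proton pump, which acidifies lysosomes, had 8 of 16 tested subunits higher and 1 lower, with Atp6v0e (0.58) and Atp6v1a (0.66) among the former and Atp6v0a2 (-0.42) as the latter. The median of the subunits was 0.17.

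Of 12 genes for sorting and processing of the enzymes 5 rose and 2 fell. Gnptab, which makes the mannose 6-phosphate mark, rose from 25.9 ± 2.15 to 61.6 ± 7.58 CPM (1.25). Igf2r, the large mannose 6-phosphate receptor, was close to the detection limit, at 0.382 ± 0.25 and 3.69 ± 0.31 CPM (3.43). The receptors Sort1 and Lrp1 fell by 0.93 and by 0.79. Of the 4 MiT/TFE factors Mitf (0.78) and Tfec (1.20, from 1.08 ± 0.568 to 2.69 ± 0.647 CPM) rose, Tfe3 (-0.38) fell and Tfeb, at 46.4 ± 4.7 and 45.3 ± 2.45 CPM, did not pass.

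Of the genes that act with cathepsin S and legumain in class II presentation, 5 of 7 rose and 0 fell. Cd74, the invariant chain, went from 133 ± 36.8 to 732 ± 111 CPM (2.47) and H2-Ab1 from 35.2 ± 12.4 to 112 ± 22.5 CPM (1.71). In CAM-like cells 0 of 69 tested genes of these lists passed, where 1.05% of all genes tested passed, so that 0 says nothing particular about the lists.

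**Figure D5:**
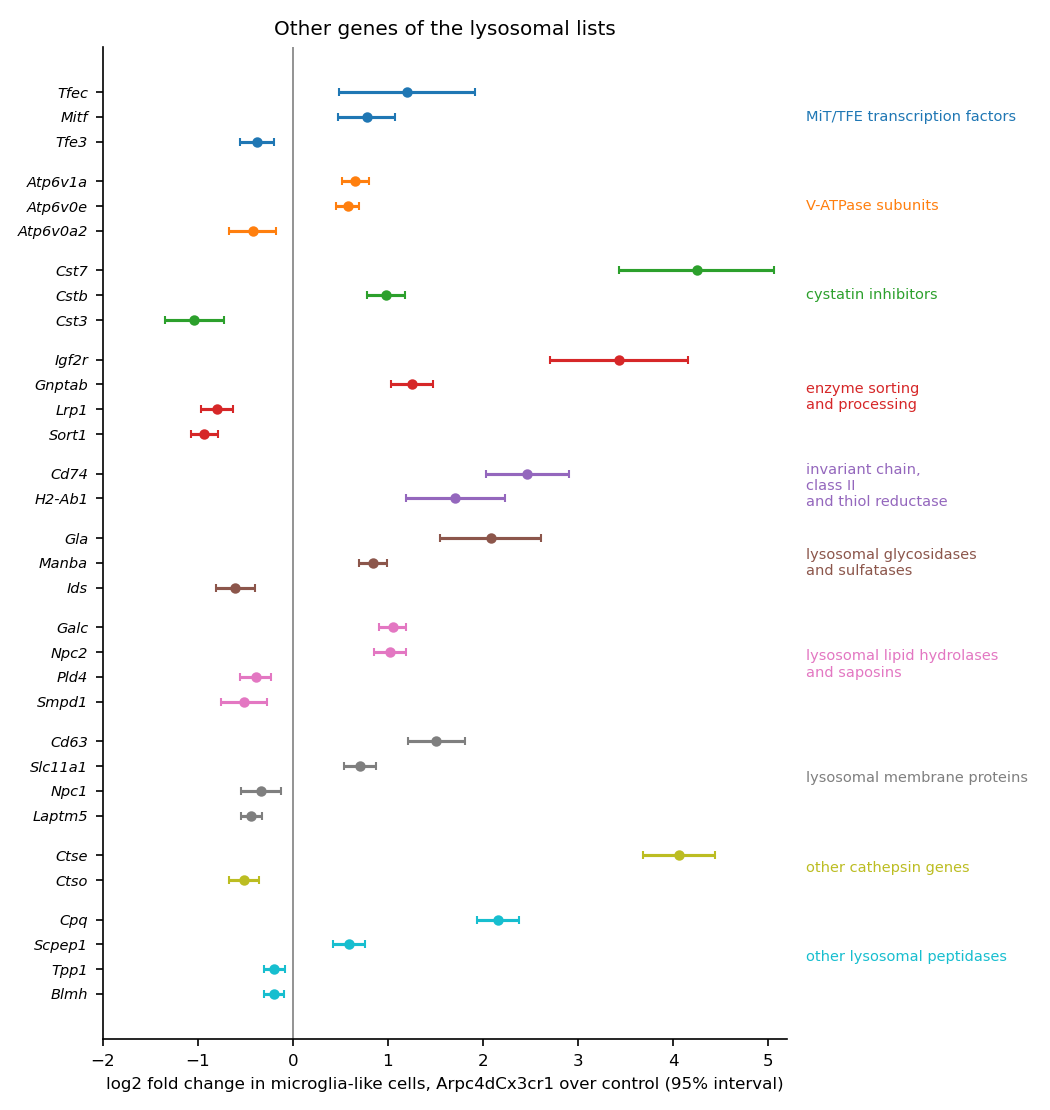
Log2 fold change of Arpc4dCx3cr1 over control in microglia-like cells, with 95% intervals, for the genes named from each lysosomal list (up to 2 per direction, those of smallest adjusted p). Cst7 and Ctse have the highest fold changes and Cst3 the lowest, and the class II list has no gene to the left of 0 here.

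Across all 42 sums per mouse and named cell class with at least 10 cells, granulocyte-like and proliferating cells included, the genes most like each of the 3 proteases with the strongest change in microglia were sought by Pearson correlation of log2 levels among 3507 genes with a mean of at least 50 CPM. Ctsb ran most with Ctsa (r = 0.94), Lamp1 (0.93) and Cd68 (0.92). Lgmn ran most with Cttnbp2nl (0.94), Fcrls (0.94), a gene that marks microglia, and Rgs10 (0.93). Ctsh ran most with Ctsz (0.90), Prcp (0.90) and Ctsb (0.88). These points share 8 mice and 1 library, and sums of 1 cell class lie together, so they describe the sums and carry no test.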

How the data were processed

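The authors deposited UMI counts per gene and cell for 8 mice, demultiplexed by tag from 1 pooled 10x Genomics 3′ library. The file header names Cell Ranger 7.1.0 and the submitters' processing notes 6.1.2, on mm10. The study removed cells above 20% mitochondrial reads or under 200 genes, used SoupX to find and discard cells with ambient RNA, and left its female Arpc4dCx3cr1 mouse out of the analysis. The labels do not name that mouse, but by its Xist level it is mouse 1. All 4 were kept here, and the fits without mouse 1 were alternatives.

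Here cells were clustered with Seurat 5.3.0 (20 components, resolution 0.8) and clusters named from marker lists. The limits for naming were set after the clusters had been seen, and clusters of low depth stayed unnamed. No doublet caller was run. Counts were summed per mouse and class and tested with edgeR 4.0.16 (R 4.3.3) by its quasi-likelihood test, with filterByExpr, TMM factors and Benjamini-Hochberg adjustment. DESeq2 1.42.0, other scalings and filters, ambient subtraction, another resolution and leaving out each mouse were alternatives. The test was checked on simulated data: of 200 genes changed 2-fold it recovered 94.5% in microglia (12761 genes), 82% in CAMs (3213) and 16.5% of differences between them (11254). The simulation of differences gave microglia the spread between mice of CAMs, so the 16.5% does not give the power of that test here.

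The genes, lists and tests were chosen with earlier results of these data known. Named are all 10 genes, Arpc4, up to 2 genes per direction and list by smallest adjusted p among those passing in microglia, and the 3 genes most like each of the 3 members with the greatest change. A gene of the glycosidase list that met this rule is not reported here. Sums held 4200513 to 11689205 UMIs in microglia and 93546 to 432724 in CAMs. The labels list 8 mice, although their protocol mentions fewer pooled samples. Replicate numbers are names: same-numbered mice of the groups did not deviate together (r of -0.091, 0.001, -0.057 and -0.024).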

Additional observations from a re-analysis of the deposited data

Results flagged for a closer look

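A single mouse lay far from the other 3 of its group in 4 of 58 groups of 4 mice tested with Dixon's ratio of gap to range at its 95% critical value, where chance gives about 1 in 20 groups. In microglia-like cells Arpc4dCx3cr1 mouse 1 had Ctsh at 1281 CPM against 1073 to 1107 (ratio 0.839) and Ctss at 7863 CPM against 6042 to 6265 (0.878). In monocyte-like cells Arpc4dCx3cr1 mouse 4, with 14 cells, had Ctsh at 359 CPM against 546 to 580.2 (0.847) and Ctss at 1089.5 CPM against 2104 to 2211 (0.904).

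The genotype effect differed between CAM-like and microglia-like cells by the interaction test of edgeR for Ctsc (-0.661 on the log2 scale), Ctsh (-0.762) and Ctss (-0.884). Of these, Ctss passed under each alternative tried.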

How the results depend on the processing

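In microglia-like cells the 9 calls held under all alternatives, and the number of genes past the threshold ranged from 5137 to 6512. Total counts gave 2245 higher and 4267 lower genes (34.5% higher, against 49.6% with TMM factors). In CAM-like cells the directions turned for Ctsf without the filter on low counts (-0.027) and, at resolution 0.4, for Ctsa (-0.30), Ctsb (-0.14), Ctsd (0.37), Ctsf (-0.43) and Ctss (0.57). Genes past the threshold there numbered 34, against 119 without the filter, 817 at resolution 0.4, where 3 of the 10 passed, and 10 to 55 leaving out single mice. Leaving out single mice also turned Ctsa (-0.014 to 0.29), Ctsd (-0.13 to 0.0043) and Ctsf (-0.16 to 0.23) in CAM-like cells and Lgmn (-0.35 to 0.14) and Ctss (-0.14 to 0.20) in monocyte-like cells. It gave 1 to 5 of the 10 genes with differing effects, the lowest without any single control mouse and 5 without Arpc4dCx3cr1 mouse 1, and 0 to 1 in monocyte-like cells. The cause of these shifts was not tested, apart from the cells added at resolution 0.4.

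With replicate number as a block, 5511 genes and 9 of the 10 passed in microglia-like cells, and 14 genes and 0 of the 10 in CAM-like cells. Of the levels by cell class, 57 moved by less than 1 SD under ambient subtraction or the other resolution and 23 by more. Small changes are hard to detect in either class: of genes changed 1.3-fold in simulated data, 1.5% were recovered in CAM-like and 14% in microglia-like cells, against 82% and 94.5% at 2-fold, and depth, cell number and spread between mice were not separated.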
